A study of Homo sapiens with 6 samples.

Results

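The 8 genes described here carry the signal of programmed cell death from the cell surface or the mitochondrion to the caspases, or hold it back: FAS, FADD, CASP8, CFLAR, APAF1, CASP9, XIAP and BIRC3. They were chosen by name, and their symbols were matched to the Ensembl identifiers of the deposited table through GENCODE release 29. All 8 were found among the 18278 listed genes, and all 8 cleared the minimum for testing, an average of 10 normalized reads per sample. RNA was sequenced from 3 samples of Toledo cells treated with TP-064 at 5 uM and from 3 samples treated with DMSO, all for 6 days. Toledo is an established human line from a diffuse large B cell lymphoma that grows in suspension. TP-064 inhibits the enzyme activity of CARM1, an arginine methyltransferase of histones and transcriptional coactivators, and DMSO is its solvent. The series concerns CARM1 inhibition in lymphomas with mutated CREBBP or EP300, both of which encode histone acetyltransferases. All samples come from this 1 line, and since no label states that replicates came from separate cultures, p-values reflect variation among these libraries alone, possibly technical.

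Caspases are proteases that are made as inactive precursors and dismantle the cell once activated. In the extrinsic route, a ligated death receptor such as FAS recruits the adaptor FADD, which gathers caspase-8 into an activating complex, and the caspase-like protein encoded by CFLAR competes for a place there. In the intrinsic route, cytochrome c released from mitochondria lets APAF1 assemble into the apoptosome, which activates caspase-9. Both routes converge on further caspases downstream, and inhibitor of apoptosis proteins (IAPs) act on these steps, XIAP by binding caspases and the BIRC3 product mainly by ubiquitinating components of receptor complexes. In germinal centre B cells, from which many lymphomas of this kind arise, FAS and the CFLAR product help decide which cells survive.

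Libraries held 41354131 to 48360867 recovered reads on the listed genes, and the 3 samples of each group differed from each other by more than sampling noise. The B cell identity of the line was evident from its markers: 5 of 5 (MS4A1, CD79A, CD79B, PAX5 and CD22) were detected in every sample, with a summed level of 88819 to 95714 normalized reads under TP-064 and 91333 to 92994 under DMSO. These close sums hold opposite changes: MS4A1 and PAX5 were called higher and CD79A, CD79B and CD22 lower. CD22, a B cell inhibitory receptor, moved furthest, at 280 to 334 normalized reads under TP-064 and 1634 to 1840 under DMSO (log2 fold change -2.54, SE 0.07, limma adjusted p = 2.64e-13). Of 4 T cell markers and of 2 erythroid markers, 0 had a row. Of the 4 myeloid markers 3 had a row, summing to 71.2 to 99.5 under TP-064 and 34.6 to 65.6 under DMSO. Only CSF1R stood higher under TP-064 (49.5 to 75.2 against 6.49 to 18.9). CD14 stood lower (3.96 to 8.74 against 10.8 to 20.9), and LYZ overlapped (12.2 to 18.3 against 17.3 to 25.8). Of the 5 epithelial and stromal markers 2 had a row, summing to 144 to 155 under TP-064 and 286 to 315 under DMSO. Nearly all of that sum was COL1A1, and KRT8 had 8.12 to 17.8 against 2.16 to 15.9. Of the 2 NK cell markers 1 had a row, KLRD1, at 15.2 to 19.8 under TP-064 and 25.8 to 30.1 under DMSO, and the 3 plasma cell markers, nearly all of it IRF4, summed to 30710 to 31663 under TP-064 and 35521 to 35989 under DMSO. The part of any of these in the results was not tested. In these bulk samples, fewer cells with a transcript and less of it per cell cannot be told apart.

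With TP-064 the death receptor gene FAS fell to 0.39 times and the IAP gene BIRC3 to 0.60 times its DMSO level, while CFLAR, which restrains caspase-8 activation, rose 1.40-fold. The apoptosome genes APAF1 and CASP9 each rose about as much as the other, 1.21-fold and 1.20-fold. XIAP rose 1.08-fold and FADD fell to 0.90 times its DMSO level, both small changes that some alternatives did not keep. CASP8 had 0.92 times its DMSO level and did not pass the test. Of the 8 genes, 4 were higher, 3 were lower and 1 was not called at a limma adjusted p under 0.05 over 16048 tested genes. The same test called 65.1% of all tested genes, 31.9% higher and 33.3% lower, so a count of 7 in 8 says little by itself about these genes. The 3 samples of each group did not overlap for those 7 genes, and they did not overlap for 69.1% of all tested genes. The median log2 fold change was 0.00045 over the 8 genes and 0.01 over all tested genes.

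**Figure D1:**
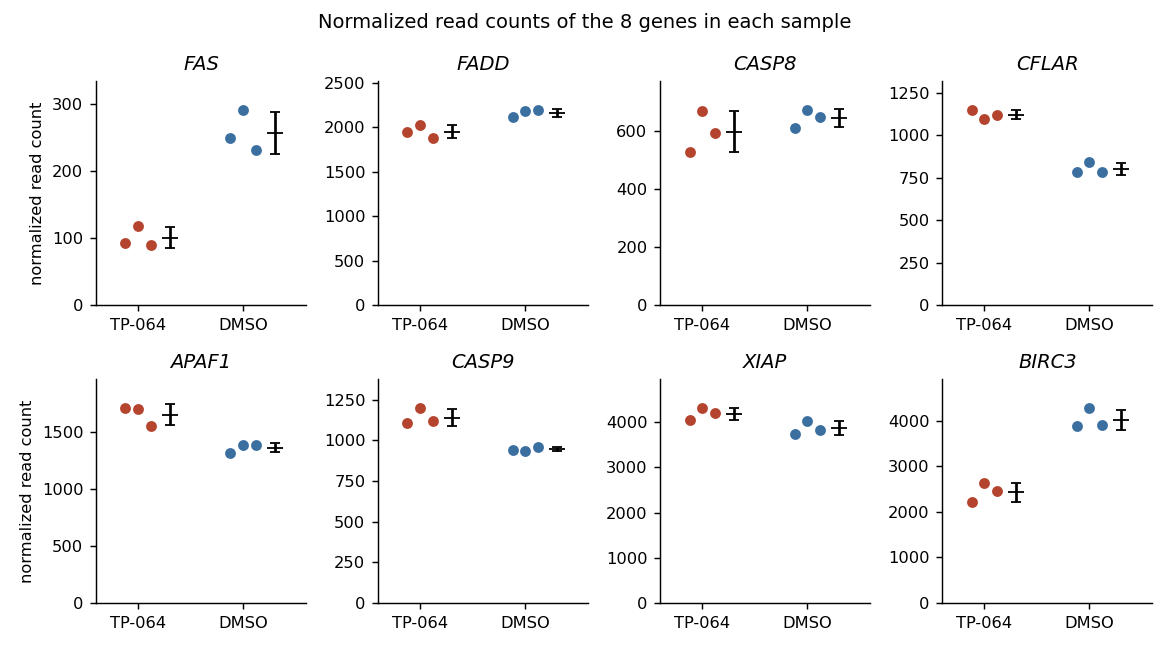
Normalized read counts (y axis, from 0, a separate scale for each gene) of the 8 genes in TP-064 and DMSO samples. Each point is 1 sample, and the black mark with its bar is the mean with the SD of 3 samples; only for CASP8 do the TP-064 and DMSO points overlap.

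FAS, the receptor at the head of the extrinsic route, changed most of the 8 genes. Its normalized reads were 92.7, 119 and 90.4 in TP-064 replicates 1, 2 and 3, against 249, 291 and 231 in DMSO replicates 1, 2 and 3. The highest TP-064 sample stood below the lowest DMSO sample. The log2 fold change was -1.35 (SE 0.13, 95% confidence interval -1.63 to -1.07, limma adjusted p = 2.53e-07), larger in size than for 92.5% of tested genes. FAS was also the least abundant of the 8 genes by reads and had the widest SE. The gene (ENSG00000026103) lies on chromosome 10 of GRCh38 from 88990582 to 89015785 on the plus strand. Its exons share 380 bases, 8.93% of their length, with exons of ACTA2 on the opposite strand, and ACTA2 had 31.5, 30.7 and 36.6 normalized reads under TP-064 against 29.1, 37.8 and 42.2 under DMSO. That was 25.8% to 40.4% of the FAS level of the same sample under TP-064 and 11.7% to 18.2% under DMSO. ACTA2 itself was not called (log2 fold change -0.13, SE 0.22, limma adjusted p = 0.633). Whether counting used strand is not given in the sources at hand, and the part of such reads in the FAS values was not tested.

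FADD, the adaptor between FAS and caspase-8, had 1941, 2025 and 1876 normalized reads in TP-064 samples and 2109, 2176 and 2189 in DMSO samples. The groups were separate by a narrow margin, and the log2 fold change was -0.15 (SE 0.04, 95% confidence interval -0.24 to -0.06, limma adjusted p = 0.00599). When libraries were scaled to their total reads only (library size scaling), the value was -0.03 and the call was lost (limma adjusted p = 0.566, range 0.00192 to 0.566 over the alternatives). The antisense gene AP000879.1 covers 1011 bases of the FADD exons, 54.9% of their length. Its counts were 4.37, 1.98 and 52.8 in TP-064 replicates 1, 2 and 3 and 1.04, 2.98 and 3.24 in DMSO replicates 1, 2 and 3, so TP-064 replicate 3 stood apart. Without that replicate FADD had a log2 fold change of -0.12 and kept its call (limma adjusted p = 0.0253). FADD (ENSG00000168040) occupies bases 70203163 to 70207390 of chromosome 11, plus strand.

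CASP8 encodes the initiator caspase of the receptor complex. Its normalized reads were 530, 671 and 596 in TP-064 samples, against 613, 673 and 651 in DMSO samples. The groups overlapped, since TP-064 replicate 2 lay among the DMSO samples. The log2 fold change was -0.11 (SE 0.08; limma adjusted p = 0.219), and its 95% confidence interval of -0.28 to 0.05 leaves room for a fall to 0.82 times or a rise to 1.04 times the DMSO level. The result varied with the TP-064 replicate left out. Without replicate 2 the value was -0.20 and passed the test (limma adjusted p = 0.0256, range 0.0256 to 0.922 over the alternatives). Without replicate 1 it was -0.03 and did not pass (limma adjusted p = 0.75). Library size scaling gave 0.01, the opposite sign.

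CFLAR, whose product resembles caspase-8 but lacks protease activity, was called higher, unlike its neighbours at the same locus, which were not called. Its normalized reads were 1148, 1099 and 1120 in TP-064 samples and 783, 843 and 783 in DMSO samples. Every TP-064 sample exceeded every DMSO sample, with little spread within either group. The log2 fold change was 0.48 (SE 0.05, 95% confidence interval 0.37 to 0.59, limma adjusted p = 7.99e-07), larger in size than for 62.8% of tested genes. CFLAR (ENSG00000003402, chromosome 2 from 201116104 to 201176687), CASP10 (from 201182881 to 201229406) and CASP8 (ENSG00000064012, from 201233443 to 201287711) stand in a row on the plus strand. The gaps between them are 6194 and 4037 bases. CASP10, a receptor-recruited caspase between the other two, averaged 46.4 ± 6.90 normalized reads under TP-064 and 50.9 ± 4.73 under DMSO (SD, n = 3 each) and was not called (log2 fold change -0.14, SE 0.19; limma adjusted p = 0.547). Of the 3 neighbours, 1 was called. The antisense gene CFLAR-AS1, which overlaps 777 bases of CFLAR exons, had 5.96 to 14.1 normalized reads over all samples, at most 1.80% of the CFLAR level of the same sample.

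Within a sample, the ratio of CASP8 to CFLAR reads does not depend on how libraries are scaled. It was 0.462, 0.610 and 0.532 in TP-064 samples, against 0.782, 0.798 and 0.831 in DMSO samples. All TP-064 ratios were below all DMSO ratios. The difference of the mean log2 ratio was -0.60, a ratio 0.661 times as high under TP-064, at an exact two-sided permutation p of 0.1, the smallest p that 3 against 3 samples allow. Transcripts of the receptor relative to its adaptor fell further: FAS over FADD was 0.0477, 0.0586 and 0.0482 under TP-064 and 0.118, 0.134 and 0.106 under DMSO. That difference was -1.21 on the log2 scale (exact permutation p = 0.1). As ratios of reads they are not ratios of molecules, because the transcripts differ in length.

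The start of CFLAR is shown because CFLAR and BIRC3 are both known targets of the transcription factor NF-kB yet moved in opposite directions. Promoter windows of 250 bases before to 50 bases after annotated RefSeq starts (GRCh38.p14) were available for all 8 genes, 18 windows in all, and were searched on both strands for the NF-kB consensus, for TTTNGCGC, a form of the E2F site, and for TGACGTCA, the cyclic AMP response element. Matches of different motifs do not overlap each other, but the FAS match reads as the NF-kB consensus on both strands of the same bases, and the overlapping BIRC2 windows hold 1 and the same TGACGTCA. The consensus of NF-kB occurs in 11.3%, TTTNGCGC in 1.79% and TGACGTCA in 1.85% of 35116 such windows. Among the 8 genes the NF-kB consensus was found at 1 of 4 CFLAR starts, 1 of 3 FAS starts and the BIRC3 start, while TTTNGCGC and TGACGTCA were not found in any of the 18 windows. In the CFLAR window on chr2:201118466-201118765 (plus strand), the match GGGGAATTCC in capitals begins 97 bases before the start:
CFLAR: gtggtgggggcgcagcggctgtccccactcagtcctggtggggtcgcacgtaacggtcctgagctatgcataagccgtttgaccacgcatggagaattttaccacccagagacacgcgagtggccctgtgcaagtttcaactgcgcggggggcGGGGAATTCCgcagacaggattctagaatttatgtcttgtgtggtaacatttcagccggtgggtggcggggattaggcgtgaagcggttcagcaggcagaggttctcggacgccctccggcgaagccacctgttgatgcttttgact

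BIRC3 encodes cellular IAP2, a ubiquitin ligase of receptor complexes and of NF-kB signalling. Its normalized reads were 2214, 2636 and 2450 in TP-064 samples, against 3879, 4286 and 3914 in DMSO samples. The groups were well separated, and the log2 fold change was -0.73 (SE 0.06, 95% confidence interval -0.85 to -0.61, limma adjusted p = 2.85e-08), larger in size than for 77.6% of tested genes. BIRC2, the gene of its close relative cellular IAP1, rose to 4319 ± 136 normalized reads under TP-064, against 3515 ± 53.2 under DMSO (SD, n = 3 each; log2 fold change 0.30, SE 0.04, limma adjusted p = 4.16e-06). The pair lies on chromosome 11 on the plus strand, BIRC3 (ENSG00000023445) from 102317450 to 102339403 and BIRC2 from 102347211 to 102378670, with 7808 bases between them. BIRC3 reads per BIRC2 read were 0.530, 0.609 and 0.550 in TP-064 samples and 1.12, 1.21 and 1.10 in DMSO samples. BIRC3 thus had fewer reads than BIRC2 in each TP-064 sample and more in each DMSO sample. The log2 ratio differed by -1.03 (exact permutation p = 0.1, the smallest possible). That p adds nothing to the fold changes, since each gene alone separated the groups, in opposite directions.

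The windows at the starts of these neighbours are shown because their transcripts moved apart. In the BIRC3 window (chr11:102317234-102317533, plus strand) capitals mark matches to the NF-kB consensus on the minus strand, which begin 199 and 135 bases before the start. In the upstream BIRC2 window (chr11:102346964-102347263, plus strand) capitals mark the TGACGTCA motif, which begins 7 bases before the start. The NF-kB consensus was not found in the BIRC2 windows. A match describes these letters only:
BIRC3: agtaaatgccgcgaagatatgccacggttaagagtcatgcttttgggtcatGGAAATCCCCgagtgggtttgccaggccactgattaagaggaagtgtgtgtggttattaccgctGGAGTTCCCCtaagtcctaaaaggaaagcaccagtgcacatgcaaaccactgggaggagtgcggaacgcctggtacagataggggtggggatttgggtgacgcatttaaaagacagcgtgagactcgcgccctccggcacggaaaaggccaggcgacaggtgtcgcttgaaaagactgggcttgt
BIRC2: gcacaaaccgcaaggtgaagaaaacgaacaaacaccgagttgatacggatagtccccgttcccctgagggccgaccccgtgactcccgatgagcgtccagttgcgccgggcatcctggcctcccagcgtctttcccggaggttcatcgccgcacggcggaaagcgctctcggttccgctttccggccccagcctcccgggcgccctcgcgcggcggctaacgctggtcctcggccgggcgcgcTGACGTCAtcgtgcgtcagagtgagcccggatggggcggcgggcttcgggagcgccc

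XIAP, the IAP that inhibits caspases directly, had 4058, 4319 and 4196 normalized reads in TP-064 samples and 3736, 4040 and 3838 in DMSO samples. The lowest TP-064 sample was just above the highest DMSO sample. The log2 fold change of 0.11 (SE 0.04, 95% confidence interval 0.03 to 0.20, limma adjusted p = 0.0203) was smaller in size than that of most tested genes. It missed the threshold without TP-064 replicate 2 (0.09, limma adjusted p = 0.0587), without DMSO replicate 1 (0.09, 0.111) and without DMSO replicate 3 (0.11, 0.0693), within a range of 2.8e-05 to 0.111 over all alternatives. XIAP (ENSG00000101966) is on the X chromosome from 123859724 to 123913979 on the plus strand.

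APAF1 is the scaffold of the apoptosome. Its normalized reads were 1708, 1696 and 1548 in TP-064 samples, against 1315, 1384 and 1383 in DMSO samples. Every TP-064 sample was above every DMSO sample, and replicate 3 was the lowest of the treated samples. The log2 fold change was 0.28 (SE 0.05, 95% confidence interval 0.17 to 0.38, limma adjusted p = 0.000146). The gene (ENSG00000120868) spans 98645141 to 98735433 on chromosome 12 (plus strand). ANKS1B, which shares 750 bases of exon with it on the opposite strand, had 11.4, 6.92 and 11.2 normalized reads under TP-064 and 2.08, 6.96 and 4.33 under DMSO, at most 0.722% of the APAF1 level.

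CASP9 encodes the initiator caspase that the apoptosome activates. Its normalized reads were 1105, 1200 and 1117 in TP-064 samples and 942, 935 and 961 in DMSO samples, again with no overlap. The log2 fold change was 0.27 (SE 0.05, 95% confidence interval 0.16 to 0.38, limma adjusted p = 0.000227). CASP9 (ENSG00000132906) lies on chromosome 1 from 15490832 to 15526534 on the minus strand. Relative to XIAP, which binds the active protease, CASP9 reads stood at 0.272, 0.278 and 0.266 under TP-064 and 0.252, 0.232 and 0.250 under DMSO. APAF1 relative to XIAP stood at 0.421, 0.393 and 0.369 under TP-064 and 0.352, 0.343 and 0.360 under DMSO. Both ratios were higher in all TP-064 samples, by 0.15 and 0.16 on the log2 scale (exact permutation p = 0.1 each), a far smaller difference than those of BIRC3 over BIRC2 or FAS over FADD.

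**Figure D2:**
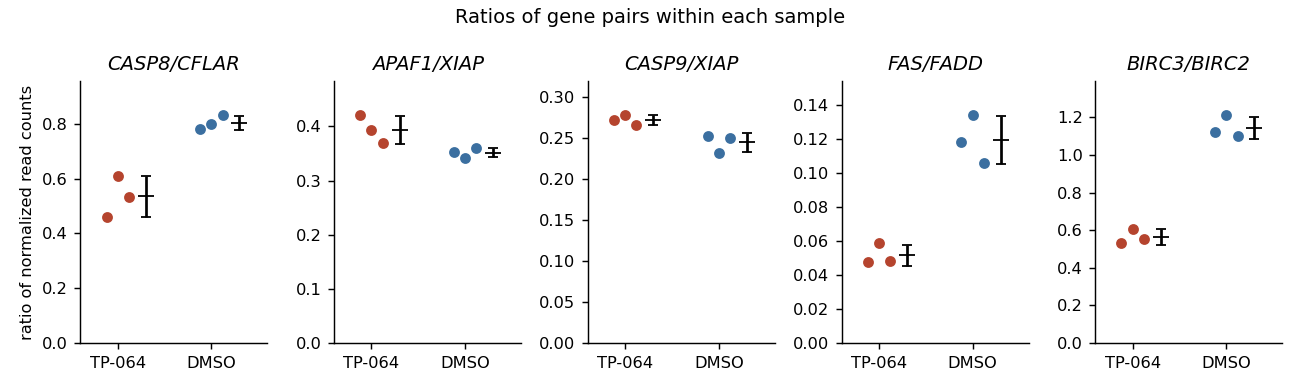
Ratios of normalized reads of 5 gene pairs within each sample (y axis, from 0, a separate scale for each pair), TP-064 left and DMSO right. Points are samples and the black mark with its bar is the mean with the SD of 3 samples; TP-064 and DMSO points are separate in each panel, from 0.462 to 0.610 against 0.782 to 0.831 for CASP8/CFLAR.

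Levels can be compared between genes only per length, here as normalized reads per kilobase of annotated exon. FADD was the highest of the 8 in both groups, at 1058 ± 40.6 under TP-064 and 1172 ± 23.5 under DMSO (SD, n = 3 each). XIAP came next under TP-064, at 464 ± 14.4, followed by BIRC3 at 324 ± 28.1, whereas under DMSO BIRC3 came next, at 536 ± 30.0, and XIAP followed, at 429 ± 17.1. CASP9 and APAF1 followed at 216 ± 9.81 and 209 ± 11.3 under TP-064, where their samples overlapped, and at 180 ± 2.57 and 172 ± 4.97 under DMSO. CASP8 was at 82.7 ± 9.74 under TP-064 and 89.1 ± 4.23 under DMSO. The lowest places went to CFLAR at 49.8 ± 1.09 and FAS at 23.6 ± 3.70 under TP-064, and to FAS at 60.5 ± 7.23 and CFLAR at 35.6 ± 1.54 under DMSO. CASP9 and APAF1 under TP-064 were the only neighbours in these orders whose samples overlapped. The order rests on the length used, since the annotated exons of CFLAR span 22529 bases and its longest coding transcript 14672. Per kilobase of the longest coding transcript, XIAP and BIRC3 overlapped under TP-064 (488 ± 15.2 and 468 ± 40.7), as did APAF1 and CASP8 (234 ± 12.7 and 204 ± 24.1), and CASP8 (220 ± 10.5) overlapped CASP9 (212 ± 3.04) under DMSO.

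Of the other 5 caspases tested, CASP4 was higher, CASP2 and CASP6 were lower, and CASP1 and CASP10 were not called. With CASP8 and CASP9, 7 of 9 caspases considered had a row and were tested: 2 were higher, 2 lower and 3 not called. That is 57.1% called, against 65.1% of all tested genes. CASP6, a caspase that cleaves nuclear lamins, changed by -0.45 (SE 0.06, limma adjusted p = 1.62e-05). CASP2, an initiator caspase activated on the PIDD1 platform, changed by -0.52 (SE 0.04, limma adjusted p = 1.15e-08). CASP4, an inflammatory caspase that senses bacterial lipopolysaccharide, was the other of these to rise beside CASP9, at 835 ± 60.4 normalized reads under TP-064 and 539 ± 40.3 under DMSO (SD, n = 3 each; log2 fold change 0.63, SE 0.07, limma adjusted p = 1.42e-06). CASP1, which activates interleukin 1 beta, had -0.09 (SE 0.14, limma adjusted p = 0.575) and was not called. The median of the 7 was -0.11 and took the opposite sign, 0.01, under library size scaling, which left 2 called higher and 2 lower.

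**Figure D3:**
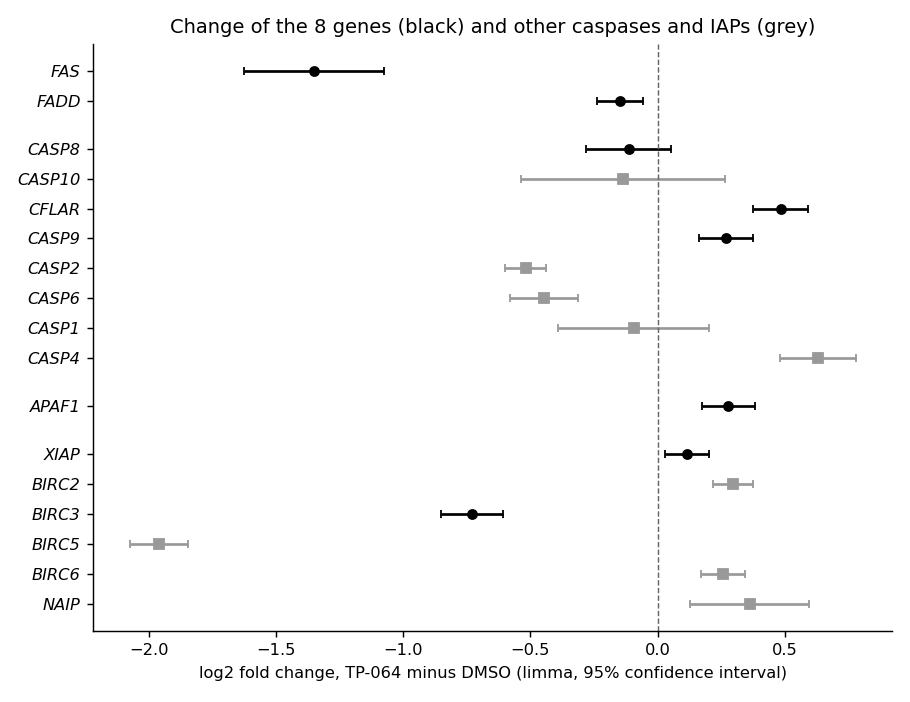
Log2 fold change (x axis, TP-064 minus DMSO) with its 95% confidence interval from limma for the 8 genes (black circles) and other caspases and IAPs (grey squares). The intervals of CASP8, CASP10 and CASP1 cross 0, and BIRC5, at -1.96, lies farthest from it.

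The IAP genes did not move as a group: BIRC2, BIRC6, XIAP and NAIP were called higher, and BIRC3 and BIRC5 lower. Of 12 tested genes of IAPs, their antagonists and the adaptors TRAF1 and TRAF2, 6 rose (50%), 3 fell (25%) and 3 were not called. Of all tested genes 31.9% were called higher and 33.3% lower. The median of the 12 was 0.06, or 0.19 under library size scaling. BIRC5, the gene of survivin, which works in cell division as well as in survival, had the largest fall among them, at 3531 ± 350 normalized reads under TP-064 and 13692 ± 258 under DMSO (SD, n = 3 each; log2 fold change -1.96, SE 0.05, limma adjusted p = 1.82e-13). BIRC6, which encodes a very large ubiquitin-conjugating IAP, rose by 0.26 (SE 0.04, limma adjusted p = 5.17e-05). NAIP, a sensor of bacterial proteins that has near-identical copies and so an uncertain count, rose by 0.36 (SE 0.11, limma adjusted p = 0.00964). TRAF2, which joins cellular IAPs to receptor complexes, changed by -0.62 (SE 0.05, limma adjusted p = 4.97e-08), while the related adaptor TRAF1 rose by 0.53 (SE 0.08, limma adjusted p = 3.68e-05). The mitochondrial IAP antagonists DIABLO and HTRA2, named after their values were seen, had log2 fold changes of 0.01 and -0.02 and were not called (limma adjusted p = 0.919 and 0.659), with signs that varied between alternatives. XAF1, also named after its value was seen, had the largest rise of this list, 0.98 (SE 0.33, limma adjusted p = 0.0175). It had few reads, 18.4 to 30.5 under TP-064 and 8.65 to 16.9 under DMSO. Its call was lost with DESeq2 (DESeq2 adjusted p = 0.052), without TP-064 replicate 3 (limma adjusted p = 0.0677) and without DMSO replicate 3 (0.0686).

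Genes around the death receptors were divided. Of 21 tested genes 7 rose, 8 fell and 6 were not called, with a median of -0.11, but library size scaling gave 9 higher and 6 lower, with a median of 0.01. The reported shares, 33.3% higher and 38.1% lower, were near the 31.9% and 33.3% of all tested genes. TNFRSF21, a death receptor also known as DR6, rose to 1526 ± 22.2 normalized reads under TP-064, against 901 ± 29.2 under DMSO (SD, n = 3 each; log2 fold change 0.76, SE 0.05, limma adjusted p = 1.46e-09). CYLD, a deubiquitinase that limits NF-kB signalling, rose by 0.53 (SE 0.04, limma adjusted p = 7.74e-09). CASP8AP2, a nuclear protein first described as a caspase-8 partner and needed for histone gene expression, had 1601 ± 32.1 under TP-064 and 3002 ± 48.5 under DMSO (log2 fold change -0.91, SE 0.04, limma adjusted p = 2.3e-11). So FAS and TNFRSF21, both death receptors, changed in opposite directions. Among other receptor genes, named after their values were seen, TNFRSF10A (-0.36) and TNFRSF10D (-0.69) fell, TNFRSF10B (0.26) rose and TNFRSF1A was not called. MLKL, counted among the 8 that fell, was near the threshold (limma adjusted p = 0.0463). It lost its call with edgeR and TMM factors, DESeq2 and limma-voom, among others.

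On the mitochondrial side, 13 genes were tested, of which 3 rose, 8 fell and 2 were not called, with a median of -0.19, or -0.06 under library size scaling, when 3 were higher and 6 lower. The reported shares were 23.1% higher and 61.5% lower, against 31.9% and 33.3% of all tested genes. APAF1 and CASP9 were among the 3 that rose. PIDD1, the platform for caspase-2, changed by -0.70 (SE 0.05, limma adjusted p = 6.65e-09). CYCS, the gene of cytochrome c that triggers APAF1 assembly, named after its value was seen, changed by -0.71 (SE 0.05, limma adjusted p = 2.3e-08). Downstream, of 14 tested genes of caspase substrates, nucleases and related proteins, CASP6 included, 4 rose, 9 fell and 1 was not called, with a median of -0.12. That is 28.6% higher and 64.3% lower, against 31.9% and 33.3% of all tested genes. Under library size scaling 5 were higher and 6 lower, with a median of 0.0049, of the opposite sign. LMNB1, a lamin of the nuclear envelope cleaved in apoptosis, changed by -1.28 (SE 0.04, limma adjusted p = 1.86e-13) and PARP1, a DNA repair enzyme and classical caspase substrate, by -0.61 (SE 0.04, limma adjusted p = 7.27e-10). GSDME, a pore-forming protein released by caspase cleavage, rose by 0.85 (SE 0.04, limma adjusted p = 4.87e-11) and XKR8, a scramblase that caspases activate, by 0.72 (SE 0.06, limma adjusted p = 1.12e-07).

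FAS, BIRC3 and CFLAR are known NF-kB targets, and FAS and APAF1 known p53 targets, so the wider sets were read beside them. Of 18 tested NF-kB regulated genes 8 rose, 8 fell and 2 were not called, with a median of 0.02, or 0.14 under library size scaling. That is 44.4% in each direction, against 31.9% higher and 33.3% lower of all tested genes. TNFAIP3, an inhibitor of the pathway, rose to 11297 ± 342 normalized reads under TP-064, against 5435 ± 57.7 under DMSO (SD, n = 3 each; log2 fold change 1.06, SE 0.03, limma adjusted p = 1.04e-12), and the adhesion molecule gene ICAM1 rose by 0.40 (SE 0.04, limma adjusted p = 2.64e-07). The chemokine receptor gene CCR7 changed by -0.88 (SE 0.06, limma adjusted p = 4.82e-09) and the activation marker gene CD83 by -0.76 (SE 0.05, limma adjusted p = 1.43e-09). Of 23 tested p53 regulated genes 10 rose, 10 fell and 3 were not called, with a median of -0.03, or 0.10 under library size scaling. That is 43.5% in each direction, against the same 31.9% and 33.3% of all tested genes. TP53INP1, which acts in stress responses and autophagy, rose by 2.85 (SE 0.05, limma adjusted p = 6.55e-15) and the antiproliferative gene BTG2 by 1.20 (SE 0.04, limma adjusted p = 3.58e-13), while DDB2, a sensor of ultraviolet damage, changed by -1.56 (SE 0.06, limma adjusted p = 3.68e-12) and the nuclease gene AEN by -0.93 (SE 0.04, limma adjusted p = 7.12e-11). The largest fall of the list was that of CDKN1A, at -1.90 (SE 0.09, limma adjusted p = 1.01e-10). PMAIP1 (-1.23) and MDM2 (-0.59) were also among the 10 that fell. BAX, another of those, lost its call under library size scaling (-0.04, limma adjusted p = 0.401). The 10 that rose also included ZMAT3 (1.30), SESN1 (0.37), SESN2 (0.26) and RRM2B (0.25). Among the 10 that rose, TP53I3 and XPC lost their call under several alternatives. The genes of this list from CDKN1A onward were named after their values were seen. The lists share genes with each other and with the 8 described here, and CASP6, DIABLO, HTRA2, PIDD1, TNFAIP3 and ICAM1 also overlap an exon of another listed gene on the opposite strand.

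**Figure D4:**
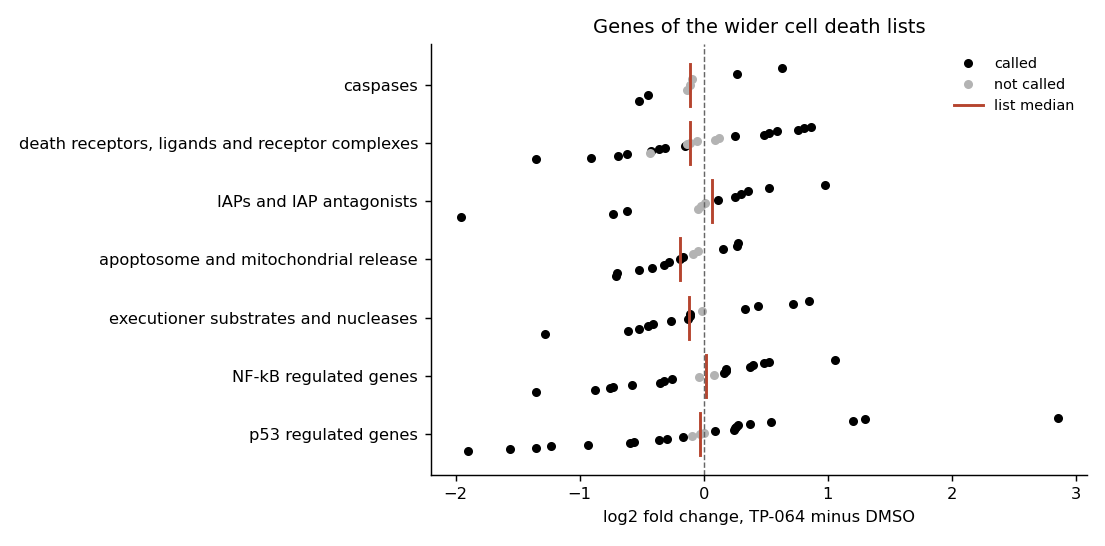
Log2 fold change (x axis, TP-064 minus DMSO) of every tested gene in 7 lists of cell death genes, called genes in black, genes not called in grey and the list median as a red line. Points lie on both sides of 0 in each list, and the medians run from -0.19 to 0.06.

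By the distance between centred log2 values over the 6 samples, the gene closest to FAS was SRGN (distance 0.156), to BIRC3 TFAM (0.0601), to CFLAR ITPR1 (0.0468), to APAF1 FAHD2A (0.0326), to CASP9 RACK1 (0.0246), to FADD AKT1 (0.0189), to XIAP GLYCTK (0.0233) and to CASP8 PSMB8-AS1 (0.101). The second closest were MGAT3 for FAS, CYB5B for BIRC3, MTCO1P12 for CFLAR, BET1L for APAF1, CSRNP1 for CASP9, RIC8A for FADD, DHX34 for XIAP and AC021028.1 for CASP8. FAS lay farthest from its nearest gene of all 8, and FADD closest. FAS also had the fewest reads and the widest SE of the 8, and the part of this in its distance was not tested.

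Across all alternatives, FAS, BIRC3, CFLAR, APAF1 and CASP9 kept their direction and their call. FAS ranged from -1.47 to -1.23, BIRC3 from -0.79 to -0.61, CFLAR from 0.47 to 0.61, APAF1 from 0.25 to 0.40 and CASP9 from 0.23 to 0.39 on the log2 scale. Under library size scaling, where libraries are scaled to their total reads only, the median over all genes was 0.13, and 61.5% of the called genes were higher, against 48.9% in the reported fit. Every one of the 8 values was higher under that scaling. It shifts all genes by nearly the same amount, so this says nothing about these 8 in particular. The list medians under that scaling moved by largely the same shift.

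**Figure D5:**
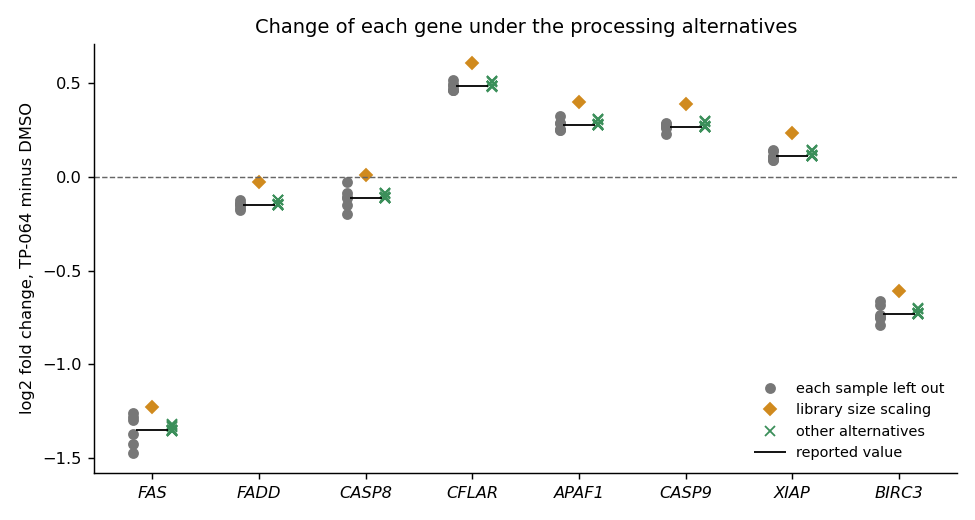
Log2 fold change (y axis, TP-064 minus DMSO) of the 8 genes as reported (black line), with each sample left out (grey circles), under library size scaling (orange diamonds) and under the other alternatives (green crosses). CASP8 crosses 0 with library size scaling, at 0.01, and FADD comes close to it, at -0.03.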

How the data were processed

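RNA was measured in 6 samples, 3 per group, grouped and numbered by their titles. The authors deposited 1 table with a signal per gene and sample, read counts divided by a size factor. Tools named are DESeq 1.18.0, TopHat2 2.0.10 and HTSeq 0.6.0, on hg38, per the submitters' processing notes, and per the labels' protocols the libraries were stranded and polyadenylated. Not given in the sources used here are the annotation release, strand setting and row filter. All values were whole multiples of 1 step per column within 0.001, and the inverse steps equalled recomputed size factors. For TP-064 replicate 2 and DMSO replicate 2 the factor is near 1, so recovery there rests on the decimals. The design named limma for normalized values: limma 3.58.1 in R 4.3.3, with trend, on log2(normalized read count + 1), over 16048 genes with a mean of at least 10, with no replicate block and Benjamini-Hochberg adjustment over all of them. Fold changes are on that scale, TP-064 minus DMSO, and understate low genes. Folds in times and their bounds are powers of these. The procedure was also run on simulated data in which far fewer genes changed than were called here, all of them with many reads. That run cannot speak for the scaling or for genes with few reads. Libraries held 41354131 reads or more; how depth limits the calls was not measured.

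The 8 genes and the lists were chosen with earlier results of these data known. Named genes are the 8, all tested caspases and BIRC genes, up to 2 called genes with the smallest p in each direction per list, the 2 nearest genes by pattern for each of the 8, and opposite-strand partners; a few list and marker genes are not reported here and are left out of the list counts. Symbols come from GENCODE 29, matched for 18214 of 18278 identifiers. Ratios were tested with exact permutation tests in scipy. Alternatives were edgeR 4.0.16 with TMM or median-of-ratios factors, DESeq2 1.42.0 and limma-voom on recovered reads, TMM and library size scaling, other filters and pseudocounts, a replicate block, each replicate left out, and a threshold of 0.01.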

Additional observations from a re-analysis of the deposited data

How the results depend on the processing

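Counts of higher and lower calls among the 8 genes and among all genes, and of calls in each list, stayed within 1.5 times the reported count under each alternative tried. All genes called higher numbered 4313 to 6653 and lower 4158 to 5430 over the alternatives, with 5511 higher and 5051 lower by edgeR with TMM factors on the recovered reads. CASP8 changed sign with scaling to library size alone (0.0088, adjusted p = 0.922). FADD was no longer called with that scaling (-0.0259, adjusted p = 0.566). XIAP was no longer called at a threshold of 0.01 (adjusted p = 0.0203 for a log2 fold change of 0.11). Which scaling is right for these samples was not tested. With 1 replicate left out, log2 fold changes ran from -0.1987 to -0.0288 for CASP8, called without TP-064 replicate 2, from 0.0894 to 0.1458 for XIAP, and from -0.18 to -0.12 for FADD, and the within-sample ratios kept their direction in all such values. The numbers shared by replicates were not taken to pair the samples. The correlation of same-numbered deviations from the group mean was -0.086, 0.066 and -0.079 for numbers 1, 2 and 3. With 3 samples per group these values cannot exclude pairing. A replicate block gave the same 4 higher and 3 lower calls among the 8 genes (XIAP adjusted p = 0.00916, FADD 0.00639). Reads shared between strands, and genes such as NAIP with near-identical copies, could not be resolved from these values.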
